A study of Mus musculus with 18 samples.

Results

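The genes described here encode the enzymes and coat proteins that release fatty acids from the lipid droplet of the fat cell. They were chosen by name: every row of the deposited count table whose symbol was on a list of 10 genes. The table holds 17672 genes, and 9 of the listed ones were among them: Abhd5, Pnpla2, Mgll, G0s2, Plin1, Plin4, Plin5, Cidea and Cidec. Lipe was not analysed here. Each of the 9 genes had enough counts to be tested.

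Triglyceride in the droplet is cut in steps. The first is made by adipose triglyceride lipase (encoded by Pnpla2), which needs its activator ABHD5 and is held back by G0S2. Hormone-sensitive lipase takes the next step, and monoglyceride lipase (encoded by Mgll) frees the last fatty acid. Perilipins coat the droplet. In a resting fat cell perilipin 1 holds ABHD5 away from the lipase, and protein kinase A, which acts after β-adrenergic receptors are engaged, releases it. The CIDE proteins, encoded by Cidea and Cidec, help small droplets to fuse into larger ones.

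RNA came from 1 immortalised mouse brown adipocyte line. All 18 libraries share a stable shRNA against Abhd5 and a lentiviral pINDUCER20 construct that codes for ABHD5, tagged with mCherry and not targeted by the shRNA, under the control of doxycycline (Dox). Cells without Dox are labelled ABHD5 KD and those that received it (at 1 µg/ml, for 24 h by the account of this experiment, where the general methods allow up to 48 h) are labelled WT. Each state received the vehicle DMSO, 10 nM isoproterenol (ISO), an agonist of β-adrenergic receptors, or 20 µM SR-3420, a synthetic ligand that frees ABHD5 from perilipin, for 3 h. This gives 6 groups of 3 libraries. No library received Dox without carrying the construct, so an effect of Dox itself and one of ABHD5 cannot be told apart. The comparisons ask which of these genes answer the agonist or the ligand, and whether the answer differs when ABHD5 is restored.

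The counts were read as intron counts, which reflect RNA before splicing rather than the mature mRNA. The length over which a gene was counted lay within 10% of its annotated intron length for 66.5% of 16388 genes and within 10% of its exon length for 2.48% of 16435. Library totals ranged from 689910 to 1956565 counts. In SR-3420 with Dox replicate 1 the 10 genes with most counts held 35.6% of them, against 16.3% to 26.5% in the other 17 libraries. Of 8 markers of adipocytes, 7 were in the table and each had more than 3 counts in every library. Their summed level was 2358 to 2891 CPM (counts scaled to a common library size) in DMSO without Dox and 2550 to 2883 CPM with Dox. It was 3607 to 3904 CPM after ISO without Dox, 4119 to 4644 CPM after ISO with Dox, 2848 to 3216 CPM after SR-3420 without Dox and 3456 to 3847 CPM after SR-3420 with Dox. Of these, Fabp4 is also on the list of other lipid droplet genes. Among 8 brown adipocyte markers, Cidea included, Dio2 was at 0 in every library and Cox8b had at most 5 counts, while Ucp1 ran from 0 to 347. Their sum was 122 to 207 CPM in DMSO, 453 to 634 CPM after ISO and 144 to 222 CPM after SR-3420 without Dox. With Dox it was 187 to 211, 744 to 1419 and 230 to 436 CPM. Markers of other cells were low: 8 macrophage genes summed to at most 22.1 CPM, 4 endothelial genes to at most 25.8 CPM, and of 4 myogenic genes Myod1, Myog and Myf5 were at 0. The fourth, Des, had 12 to 59 counts per library, and the sum of the 4 was 13.0 to 36.1 CPM. The endothelial sum lay higher after ISO, at 21.0 to 25.8 CPM against 5.34 to 16.2 in DMSO without Dox and at 17.3 to 22.1 against 7.29 to 11.6 with Dox, and it overlapped DMSO after SR-3420. The 8 fibroblast and preadipocyte markers, mostly Col1a1 and Col3a1, summed to 698 to 927 CPM in DMSO, 551 to 677 after ISO and 682 to 870 after SR-3420 without Dox. With Dox they summed to 774 to 1177, 509 to 782 and 679 to 881 CPM, so the ISO libraries lay below DMSO without Dox and overlapped it with Dox. The part of these markers in the results was not tested. In such bulk RNA, fewer expressing cells and less RNA per cell cannot be told apart.

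Positions are those of mouse build mm9. Abhd5 (NM_026179) is at chr9:122260734-122290641 on the plus strand, Pnpla2 (NM_001163689) at chr7:148641087-148646642 on the plus strand and Mgll (NM_011844) at chr6:88674406-88778354 on the plus strand. On the minus strand are Plin1 (NM_001113471, chr7:86866050-86877662), Plin4 (NM_020568, chr17:56240014-56249225), Plin5 (NM_025874, chr17:56251024-56256971), G0s2 (NM_008059, chr1:195098354-195099382) and Cidec (NM_001301295, chr6:113374628-113385754). Plin4 and Plin5 are neighbours, 1798 bases apart on the same strand. The counted part was 186 of 1029 bases for G0s2, 3444 of 9212 for Plin4, 22804 of 24231 for Cidea (NM_007702) and 85016 of 103949 for Mgll. For Pnpla2 it was 2839 bases against 2536 bases of annotated intron, and for Cidec 9407 against 9271, so both reach bases that are exon in some transcript. Cidea overlaps B430212C06Rik by 540 bases, Mgll overlaps Gm16628 by 90 and Plin4 overlaps Hdgfrp2 by 6, each on the other strand, and no source used here says whether strand was used in counting.

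The promoters of 4 genes are shown because Mgll, Plin1 and Cidec had the most similar patterns among the members and Plin4 the highest level. Each is the 250 bases before the first base of the gene in the deposited table, read 5′ to 3′ on the gene's strand from the mm9 genome. The windows are chr6:88674156-88674405 (Mgll, plus), chr7:86877663-86877912 (Plin1, minus), chr17:56249226-56249475 (Plin4, minus) and chr6:113385755-113386004 (Cidec, minus). Capitals mark matches to the motifs named after the sequences.
Mgll: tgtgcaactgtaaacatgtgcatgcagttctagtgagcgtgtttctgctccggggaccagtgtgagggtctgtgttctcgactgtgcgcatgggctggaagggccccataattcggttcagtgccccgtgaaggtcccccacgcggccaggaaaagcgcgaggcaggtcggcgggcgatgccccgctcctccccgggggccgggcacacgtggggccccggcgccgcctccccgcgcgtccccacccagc
Plin1: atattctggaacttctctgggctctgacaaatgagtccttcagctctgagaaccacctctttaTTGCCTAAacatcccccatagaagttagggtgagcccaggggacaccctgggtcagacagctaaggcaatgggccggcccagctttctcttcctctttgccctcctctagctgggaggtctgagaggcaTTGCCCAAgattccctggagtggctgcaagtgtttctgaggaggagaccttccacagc
Plin4: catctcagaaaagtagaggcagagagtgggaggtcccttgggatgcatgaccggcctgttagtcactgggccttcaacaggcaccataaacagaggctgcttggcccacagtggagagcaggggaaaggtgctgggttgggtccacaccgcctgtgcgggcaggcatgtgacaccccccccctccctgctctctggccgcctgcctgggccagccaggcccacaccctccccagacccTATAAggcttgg
Cidec: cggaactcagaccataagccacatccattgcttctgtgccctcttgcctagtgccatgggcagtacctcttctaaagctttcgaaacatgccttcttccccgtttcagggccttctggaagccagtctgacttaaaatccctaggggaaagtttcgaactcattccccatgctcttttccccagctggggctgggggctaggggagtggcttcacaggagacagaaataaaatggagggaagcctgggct
The motifs, searched on both strands, were TTGCNNAA (bound by C/EBP factors), AGGTCA (the single site of nuclear receptors), AGGTCANAGGTCA (the paired site of PPARs), TGACGTCA (the cAMP response element) and TATAA. TTGCNNAA was found in the Plin1 window at 187 and 58 bases before the start, and it is held by 8.12% of 17669 gene windows of this length. TATAA was found in the Plin4 window 12 bases and in the Plin5 window 27 bases before the start, and 16.6% of windows hold it. Neither the Mgll nor the Cidec window held any of the 5. AGGTCA (12.0% of windows) was found in the windows of Abhd5 and Plin5, and TGACGTCA (2.24%) and AGGTCANAGGTCA (0.0566%) in none of the members' windows searched. The Cidea window was not searched. The paired PPAR site contains the single one. A match is only a run of letters, and its absence concerns these windows alone.

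Compared per kilobase counted, the mean over the 18 libraries was highest for Plin4, at 867 CPM per kb. Pnpla2 (211), Plin1 (112), G0s2 (82.4) and Cidec (56.2 CPM per kb) followed. Abhd5 was at 16.5, Plin5 at 3.59, Mgll at 2.86 and Cidea at 1.04 CPM per kb. The Abhd5 mean joins group means of 2.19 to 6.21 CPM per kb without Dox and of 23.9 to 34.4 with Dox. The G0s2 value rests on 3 to 45 counts per library over a very short intron, and Plin5 (7 to 31 counts) and Cidea (8 to 61 counts) were also shallow.

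**Figure D1:**
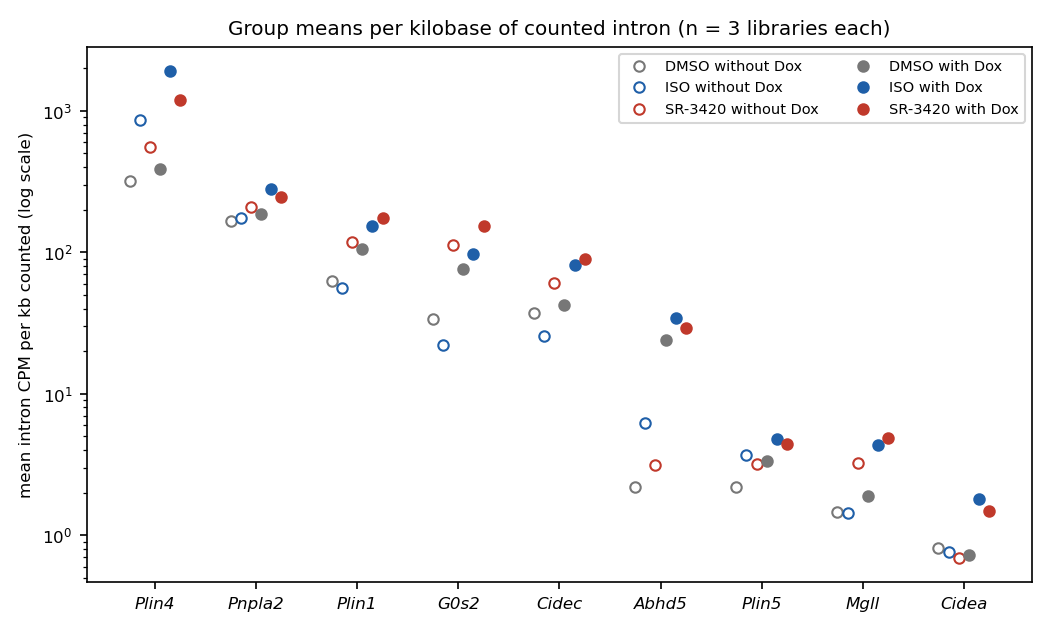
Mean level of each gene in the 6 groups, from counts read as intron counts, as CPM per kilobase counted, on a log scale. Open points are groups without Dox and filled points groups with Dox, each the mean of 3 libraries. Plin4 lies highest in every group, and the gap between open and filled points is widest for Abhd5. The Abhd5 points with Dox cannot be taken as intron reads alone.

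The comparisons differed in how many of the 9 genes they moved. ISO without Dox raised 2 (Abhd5 and Plin4) and lowered 1 (Cidec), where 14.5% of the 10178 genes tested were called higher and 13.5% lower, so the share among the members is near the background. ISO with Dox raised 7 and lowered none (background 16.4% higher and 16.1% lower). SR-3420 raised 4 without Dox (Mgll, Plin1, G0s2 and Cidec), against a background of 0.698% higher and 0.0688% lower. With Dox it raised 6 (the same 4 and Plin4 and Cidea), against 6.53% higher and 3.37% lower. The median log2 fold change of the 9 genes was -0.01 for ISO without Dox, 0.59 for ISO with Dox, 0.71 for SR-3420 without Dox and 1.00 for SR-3420 with Dox, where the median of all genes lay between -0.02 and 0.00. Each ISO comparison uses the same DMSO libraries as the SR-3420 comparison beside it. A call is an adjusted p of 0.05 or less in edgeR's quasi-likelihood test across all genes. The count for ISO with Dox was 7 with each library left out in turn, and 3 with a log2 fold change of at least 1 also required. With the replicate number as a block, SR-3420 raised 5 without Dox (adding Plin4) and 7 with Dox (adding Pnpla2), and the ISO counts were 3 and 7. With library totals only, SR-3420 raised 3 with Dox, where the share of higher calls among all genes called went from 66.0% to 31.5%. For SR-3420 without Dox the count was 2 to 5 with a library left out, being 2 without DMSO without Dox replicate 1 or 3 or without SR-3420 without Dox replicate 2.

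**Figure D2:**
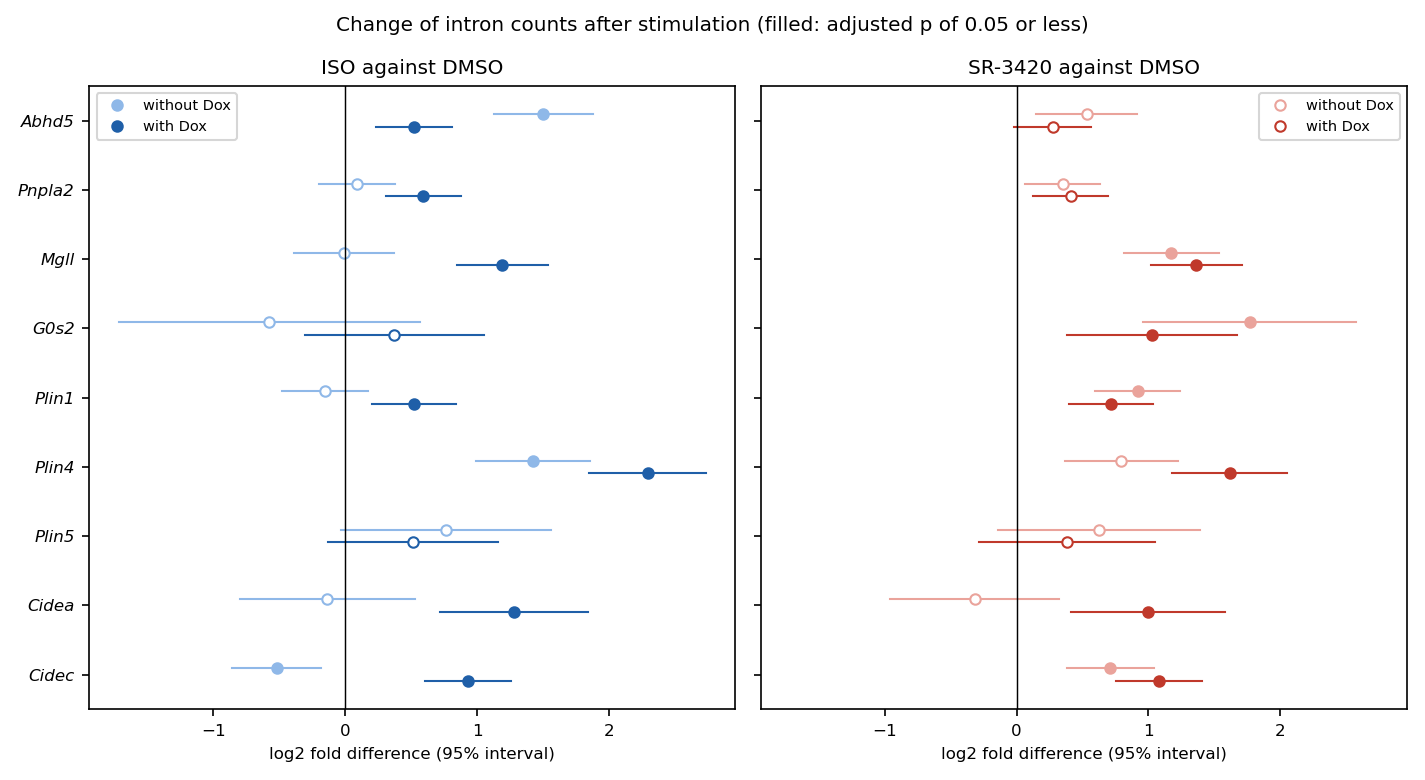
Log2 fold difference of ISO (left) and SR-3420 (right) against DMSO for the 9 genes, with 95% intervals. Pale points are cells without Dox and dark points cells with Dox, and filled points have an adjusted p of 0.05 or less. Mgll, Plin1 and Cidec lie above 0 after SR-3420 in both states and after ISO only in the dark points.

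Abhd5, the target of the shRNA, was examined first. Without Dox it had 53, 41 and 54 counts in DMSO, 160, 146 and 173 after ISO, and 134, 122 and 100 after SR-3420. With Dox it had 1211, 630 and 431 counts in DMSO, 975, 1091 and 839 after ISO, and 654, 854 and 661 after SR-3420. No library with Dox overlapped any library without it. In CPM the level in DMSO was 52.6 ± 4.71 (SD, n = 3) without Dox and 574 ± 86.1 with Dox, a log2 fold change of 3.46 (SE 0.17, adjusted p = 2.44e-14). The counts cannot tell RNA of the construct from RNA of the endogenous gene, and intron counts do not measure the mature RNA that an shRNA acts on, so they are no measure of the depth of the knockdown. A construct with the coding sequence alone would add no reads in the introns of Abhd5, yet the counts were higher in every library with Dox. The files used here do not show from which bases these reads came, so no Abhd5 value with Dox, nor any comparison with one, can be taken as intron reads alone.

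ISO raised Abhd5 in both states. Without Dox the level reached 149 ± 21.9 CPM (SD, n = 3), which is 1.50 higher on the log2 scale (SE 0.18, adjusted p = 3.34e-07), and no ISO library overlapped DMSO. With Dox it reached 827 ± 28.5 CPM (SD, n = 3), which is 0.52 higher (SE 0.14, adjusted p = 0.00502), again with no overlap. That call was lost when only library totals were used for scaling (0.39, adjusted p = 0.0982). The log2 response with Dox minus that without was -0.98 (SE 0.23, adjusted p = 0.0194). This difference missed the threshold in the fits that left out replicate 1 of DMSO without Dox (-0.90), replicate 1 of ISO without Dox (-0.87) or replicate 2 of DMSO with Dox (-0.88), and with library totals only (-0.95). After SR-3420 the level was 75.7 ± 4.21 CPM (SD, n = 3) without Dox, with no overlap with DMSO but a log2 difference of 0.53 that missed the threshold (95% interval 0.15 to 0.91, adjusted p = 0.296). With Dox it was 695 ± 140 CPM (SD, n = 3), which overlapped DMSO.

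Pnpla2 encodes the lipase of the first step. Its 9 libraries without Dox read 431, 514 and 462 CPM in DMSO, 436, 477 and 580 after ISO, and 579, 539 and 672 after SR-3420. With Dox they read 525, 514 and 544 CPM in DMSO, 753, 815 and 823 after ISO, and 755, 720 and 627 after SR-3420. The ISO libraries overlapped DMSO without Dox and lay above it with Dox, and the SR-3420 libraries lay above DMSO in both states. ISO raised Pnpla2 with Dox by 0.59 on the log2 scale (SE 0.14, adjusted p = 0.00128). Without Dox the ISO difference was 0.09 (95% interval -0.19 to 0.38). The SR-3420 difference was 0.41 with Dox (SE 0.14, adjusted p = 0.0549), and it passed with the replicate number as a block (0.41, adjusted p = 0.0105), in DESeq2 (adjusted p = 0.0198), in limma-voom (adjusted p = 0.0300) and without SR-3420 with Dox replicate 3 (0.49). Without Dox it was 0.35 (95% interval 0.07 to 0.63, adjusted p = 0.396). The difference between the ISO responses with and without Dox was 0.50 (95% interval 0.10 to 0.90) and missed the threshold (adjusted p = 0.199).

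Mgll answered SR-3420 in both states and ISO in cells with Dox. Without Dox it read 93.4, 144 and 132 CPM in DMSO and 130, 109 and 125 CPM after ISO, which overlap. SR-3420 without Dox gave 273, 265 and 288 CPM, above every DMSO library. With Dox, DMSO gave 158, 189 and 134 CPM, ISO 474, 273 and 355 CPM, and SR-3420 434, 390 and 413 CPM. Both stimuli thus stood clear of DMSO with Dox. The log2 fold change after ISO was 1.19 with Dox (SE 0.17, adjusted p = 2.36e-06) and -0.01 without (95% interval -0.39 to 0.37). These responses differed by 1.20 (SE 0.25, adjusted p = 0.00669), and the call held with each library left out and with each other scaling, filter and test. SR-3420 raised Mgll by 1.17 without Dox (SE 0.17, adjusted p = 0.000254) and by 1.36 with Dox (SE 0.17, adjusted p = 1.97e-06). The difference of those was 0.19 (95% interval -0.31 to 0.68, adjusted p = 0.816).

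G0s2, the inhibitor of the first lipase, was measured with few reads. Without Dox it had 7, 7 and 3 counts in DMSO, 5, 4 and 4 after ISO, and 31, 35 and 31 after SR-3420, whose libraries stood apart. With Dox it had 29, 9 and 17 counts in DMSO, 29, 20 and 15 after ISO, and 45, 27 and 19 after SR-3420. In CPM the groups with Dox overlapped one another. SR-3420 raised it without Dox from 6.26 ± 3.24 to 20.9 ± 3.20 CPM (SD, n = 3), by 1.77 on the log2 scale (SE 0.39, adjusted p = 0.0249). With Dox the rise was from 14.1 ± 4.87 to 28.5 ± 10.4 CPM (SD, n = 3), by 1.03 (SE 0.31, adjusted p = 0.0332). Either call was lost when any of 4 libraries was left out, with log2 fold changes of 1.43 to 1.79 without Dox and 0.70 to 1.08 with Dox. The lowest of the latter was the fit without SR-3420 with Dox replicate 1. The call without Dox also missed in limma-voom (1.79), and that with Dox in DESeq2 (1.03) and with library totals only (0.81). The ISO differences were -0.58 without Dox (95% interval -1.72 to 0.56) and 0.37 with Dox (95% interval -0.30 to 1.05).

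Among the coat genes, Plin1, which encodes the perilipin that holds ABHD5 at the droplet, answered SR-3420 in both states. Without Dox it read 491, 607 and 456 CPM in DMSO, 470, 441 and 480 after ISO, and 972, 984 and 975 after SR-3420. With Dox it read 823, 1006 and 806 CPM in DMSO, 1276, 1364 and 1147 after ISO, and 1379, 1760 and 1184 after SR-3420. The SR-3420 libraries were above DMSO in either state, and the ISO libraries only with Dox. SR-3420 raised Plin1 by 0.92 on the log2 scale without Dox (SE 0.16, adjusted p = 0.00135) and by 0.72 with Dox (SE 0.16, adjusted p = 0.00239). ISO raised it with Dox by 0.52 (SE 0.16, adjusted p = 0.0101). Scaling by library totals only took the ISO value to 0.39 (adjusted p = 0.105) and the SR-3420 value with Dox to 0.55 (adjusted p = 0.0517). Without Dox the ISO difference was -0.16 (95% interval -0.48 to 0.17), and the difference between the ISO responses was 0.68 (95% interval 0.23 to 1.14, adjusted p = 0.108; 0.0205 in DESeq2 and 0.0160 with the replicate block).

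Plin4, a perilipin of small and newly formed droplets, had the highest log2 fold change after ISO with Dox among the 9 genes. It read 870, 1438 and 988 CPM in DMSO without Dox and 2696, 3354 and 2801 CPM after ISO, with no overlap. SR-3420 without Dox gave 1893, 2082 and 1725 CPM, also above DMSO. With Dox it read 1344, 1592 and 1070 CPM in DMSO, 6672, 6832 and 6136 after ISO, and 4541, 4591 and 3140 after SR-3420. These 3 groups did not overlap. The log2 fold change after ISO was 1.43 without Dox (SE 0.21, adjusted p = 8.31e-06) and 2.29 with Dox (SE 0.22, adjusted p = 2.26e-09). The difference of these, 0.87 (95% interval 0.27 to 1.47), missed the threshold (adjusted p = 0.122) but passed in DESeq2 (0.0140), in limma-voom (0.0452), with no filter (0.0498) and with the replicate block (0.0119). SR-3420 raised Plin4 with Dox by 1.62 (SE 0.21, adjusted p = 4.45e-06). The SR-3420 responses differed by 0.82, which missed the threshold (adjusted p = 0.211; 0.0297 with the block). Without Dox the SR-3420 difference of 0.79 (SE 0.21) missed the threshold (adjusted p = 0.0735), but it passed with the replicate number as a block (0.81, adjusted p = 0.00122), with no filter, in DESeq2, in limma-voom, with only the 2 groups fitted and without DMSO without Dox replicate 2 (0.79 to 1.03, adjusted p = 0.000935 to 0.0299).

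Plin5, the perilipin of tissues with high fat oxidation, gave no called difference in any of the 10 comparisons, at 7 to 31 counts per library. Its level was 8.52 ± 3.25 CPM in DMSO, 14.3 ± 5.43 after ISO and 12.5 ± 2.85 after SR-3420 without Dox (SD, n = 3). With Dox it was 13.0 ± 1.33, 18.8 ± 6.20 and 17.2 ± 3.05 CPM (SD, n = 3). Without Dox both stimulated groups overlapped DMSO. With Dox the ISO libraries, at 14.2 to 25.8 CPM, lay above those in DMSO, at 11.5 to 14.0 CPM, but the log2 difference of 0.51 missed the threshold (95% interval -0.13 to 1.16, adjusted p = 0.221), and SR-3420 overlapped DMSO. The interval for ISO without Dox runs from -0.03 to 1.56, so a log2 change of 1 was not excluded at this depth.

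Cidec, whose product enlarges droplets, answered ISO in opposite directions. Without Dox it read 309, 428 and 307 CPM in DMSO and 190, 282 and 253 CPM after ISO, all lower. With Dox it read 423, 432 and 347 CPM in DMSO and 746, 814 and 735 CPM after ISO, all higher. The log2 fold change was -0.52 without Dox (SE 0.17, adjusted p = 0.0199) and 0.93 with Dox (SE 0.16, adjusted p = 4.21e-05), and these differed by 1.45 (SE 0.23, adjusted p = 0.000397). The lower level without Dox missed the threshold without DMSO without Dox replicate 2 (-0.35) or ISO without Dox replicate 1 (-0.37), while the difference between the states passed in every alternative (1.28 to 1.59). After SR-3420 the libraries read 588, 624 and 489 CPM without Dox and 845, 973 and 726 CPM with Dox, clear of DMSO in both states. SR-3420 raised Cidec by 0.71 without Dox (SE 0.16, adjusted p = 0.0279) and by 1.08 with Dox (SE 0.16, adjusted p = 2.61e-05). The former was lost when any of 4 libraries was left out (0.62 to 0.68): DMSO without Dox replicates 1 and 3 and SR-3420 without Dox replicates 1 and 2. It was also lost with library totals only (0.66, adjusted p = 0.140).

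Cidea, the CIDE gene used as a marker of brown fat cells, rose after both stimuli with Dox, and without Dox the differences were -0.13 after ISO (95% interval -0.80 to 0.53) and -0.32 after SR-3420 (95% interval -0.96 to 0.32). Its counts without Dox were 31, 8 and 17 in DMSO, 17, 13 and 28 after ISO, and 27, 23 and 23 after SR-3420, and the groups overlapped in CPM. With Dox they were 38, 16 and 13 in DMSO, 61, 41 and 42 after ISO, and 52, 26 and 29 after SR-3420. In CPM both stimulated groups stood above DMSO with Dox, at 41.2 ± 9.30 and 33.5 ± 10.7 against 16.5 ± 1.85 (SD, n = 3). The log2 fold change was 1.28 after ISO (SE 0.27, adjusted p = 0.000635) and 1.00 after SR-3420 (SE 0.29, adjusted p = 0.0224). The SR-3420 call was lost when replicate 1 of SR-3420 with Dox (0.70, adjusted p = 0.220) or any of the 3 DMSO libraries with Dox was left out, and with library totals only (0.78). The ISO responses with and without Dox differed by 1.41 (95% interval 0.54 to 2.29) and missed the threshold (adjusted p = 0.0771), but passed with no filter (0.0301), with the replicate block (0.0129) and without DMSO without Dox replicate 2 (0.0370) or ISO with Dox replicate 2 (0.0383). The SR-3420 responses differed by 1.32 and also missed it (adjusted p = 0.157; 0.0313 with the block).

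**Figure D3:**
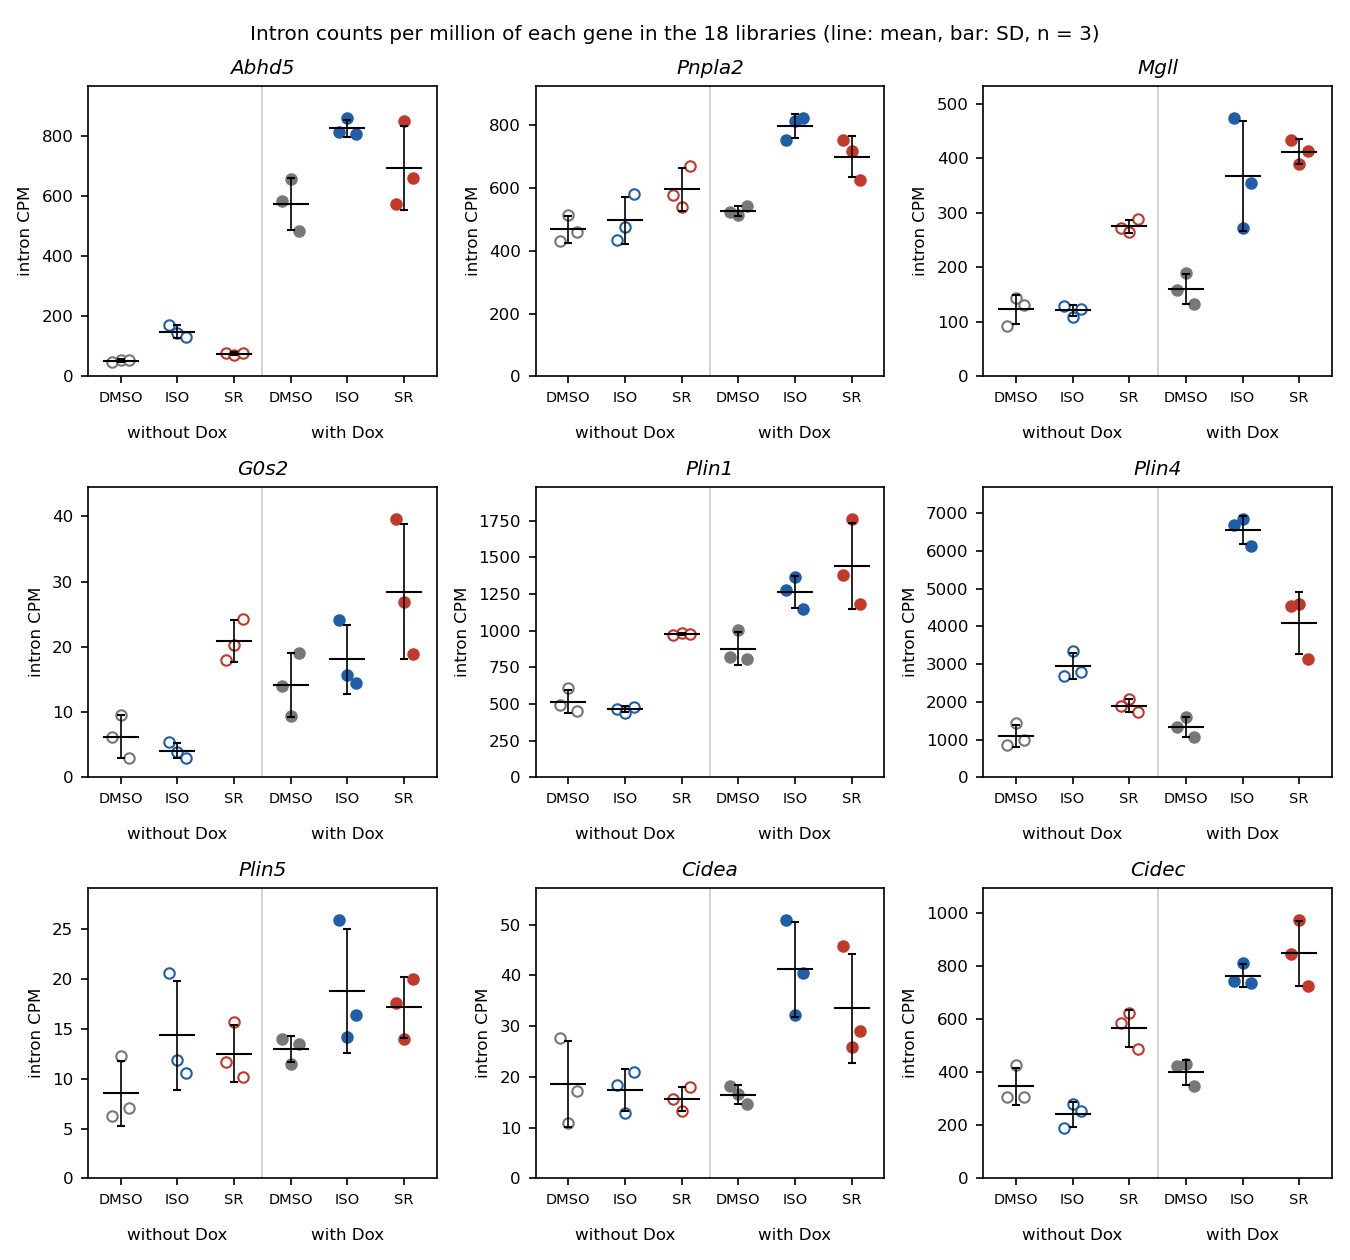
CPM of the 9 genes in each of the 18 libraries, from counts read as intron counts. Open points are without Dox, filled points with Dox, and black lines and bars are the mean and SD of 3 libraries. After ISO without Dox, Mgll and Plin1 overlap DMSO and Cidec lies below it, and after ISO with Dox all 3 lie above DMSO.

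Cells with Dox were compared with cells without it under each stimulus. Abhd5, which the construct codes for, is among the genes raised under each. Its call is thus no result to set against the background. In DMSO, Dox raised 2 of the 9 genes, the target Abhd5 and Plin1, where 1.09% of all genes were called higher and 0.0884% lower. Plin1 rose by 0.76 (SE 0.16, adjusted p = 0.00519), a call lost when replicate 1 (0.72) or 3 (0.68) of DMSO without Dox or replicate 2 of DMSO with Dox (0.66) was left out, and with library totals only (0.68, adjusted p = 0.0867). For the other 7 genes the log2 difference ran from -0.20 (Cidea) to 1.21 (G0s2). After ISO, Dox raised 8 of the 9 genes, Abhd5 included, against 7.92% of all genes higher and 4.82% lower. Plin5 was the exception (0.43, 95% interval -0.23 to 1.09). Next to Abhd5 (2.48), the log2 fold changes were 2.16 for G0s2 (SE 0.43, adjusted p = 0.000762), 1.66 for Cidec (SE 0.16, adjusted p = 2.59e-08), 1.60 for Mgll (SE 0.17, adjusted p = 1.30e-07) and 1.44 for Plin1 (SE 0.16, adjusted p = 1.79e-07). Cidea rose by 1.22, Plin4 by 1.15 and Pnpla2 by 0.68. The count stayed at 8 with each library left out.

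After SR-3420, Dox raised 6 of the 9 genes, again with Abhd5 included, against 7.26% of all genes higher and 4.28% lower. The log2 fold changes were 3.20 for Abhd5, 1.12 for Cidea (SE 0.28, adjusted p = 0.00780), 1.11 for Plin4 (SE 0.21, adjusted p = 0.000522), 0.58 for Mgll and for Cidec, and 0.56 for Plin1. The Cidea value fell to 0.82 (adjusted p = 0.107) without SR-3420 with Dox replicate 1. Of the smaller changes, Mgll missed the threshold without that library (0.55) and without either replicate 1 (0.57) or 2 (0.56) of the group not given Dox. Plin1 missed it without replicate 1 (0.54) or 3 (0.56) of that group or replicate 2 of the group given Dox (0.40), and with only the 2 groups fitted (0.54). Cidec missed it without replicate 3 of the former (0.49) or replicate 2 of the latter (0.48). With library totals only, 3 of the 6 remained past it.

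**Figure D4:**
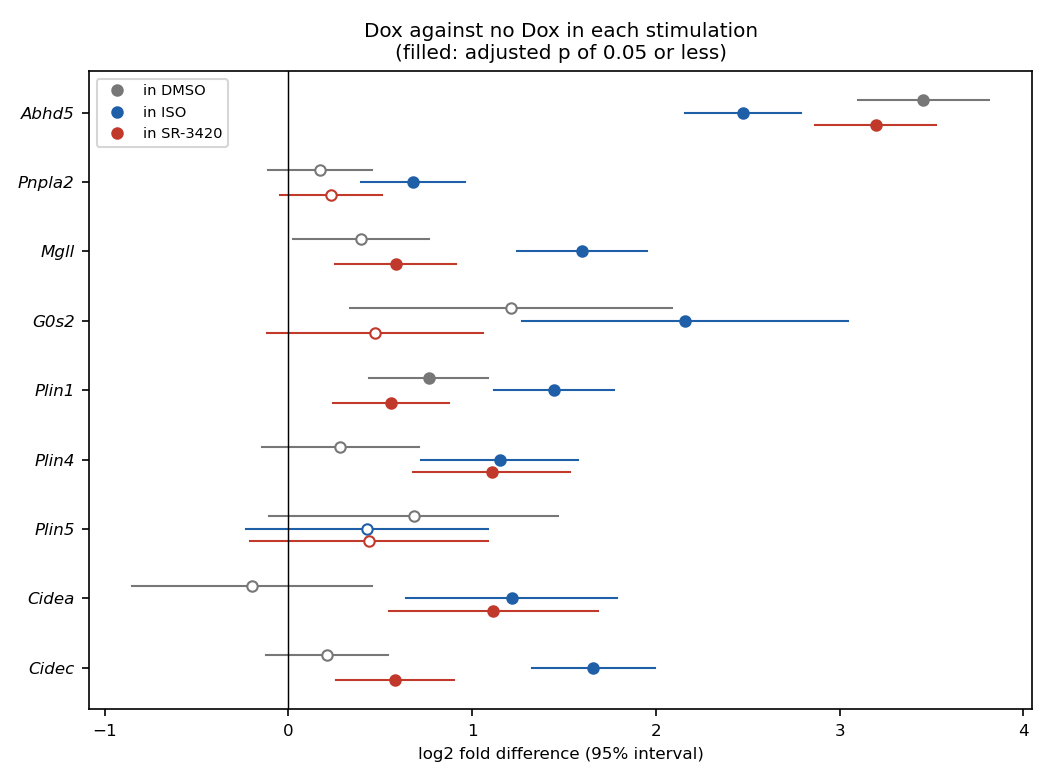
Log2 fold difference of cells with Dox against cells without, in DMSO (grey), ISO (blue) and SR-3420 (red), with 95% intervals. Filled points have an adjusted p of 0.05 or less. For Cidec the value is 0.21 in DMSO, 1.66 in ISO and 0.58 in SR-3420.

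Whether a response differed between the states was tested as an interaction. For ISO, 2 of the 9 genes had a larger response with Dox (Mgll and Cidec) and 1 a smaller one (Abhd5), against 1.61% and 0.57% of all genes. The Abhd5 difference rests on its values with Dox, and its call was lost in the fits named above. For SR-3420 none of the 9 was called by edgeR, against 0.54% of all genes with a larger and 0.216% with a smaller response with Dox. At an unadjusted p under 0.05 there were 2, Plin4 (0.82, 95% interval 0.22 to 1.42, adjusted p = 0.211) and Cidea (1.32, 95% interval 0.45 to 2.19, adjusted p = 0.157), and DESeq2 and limma-voom also called 0. With the replicate number as a block, which the check of the numbers did not settle across these groups, the ISO test called 6, adding Plin1, Plin4 and Cidea, and the SR-3420 test called 2, Plin4 and Cidea. The SR-3420 response of Mgll, Plin1 and Cidec was called in both states, with interactions of 0.19 (95% interval -0.31 to 0.68), -0.20 (-0.65 to 0.25) and 0.37 (-0.09 to 0.83). With library totals only, Plin1 with Dox and Cidec without Dox missed the threshold. Cidec without Dox also missed it with some single libraries left out.

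**Figure D5:**
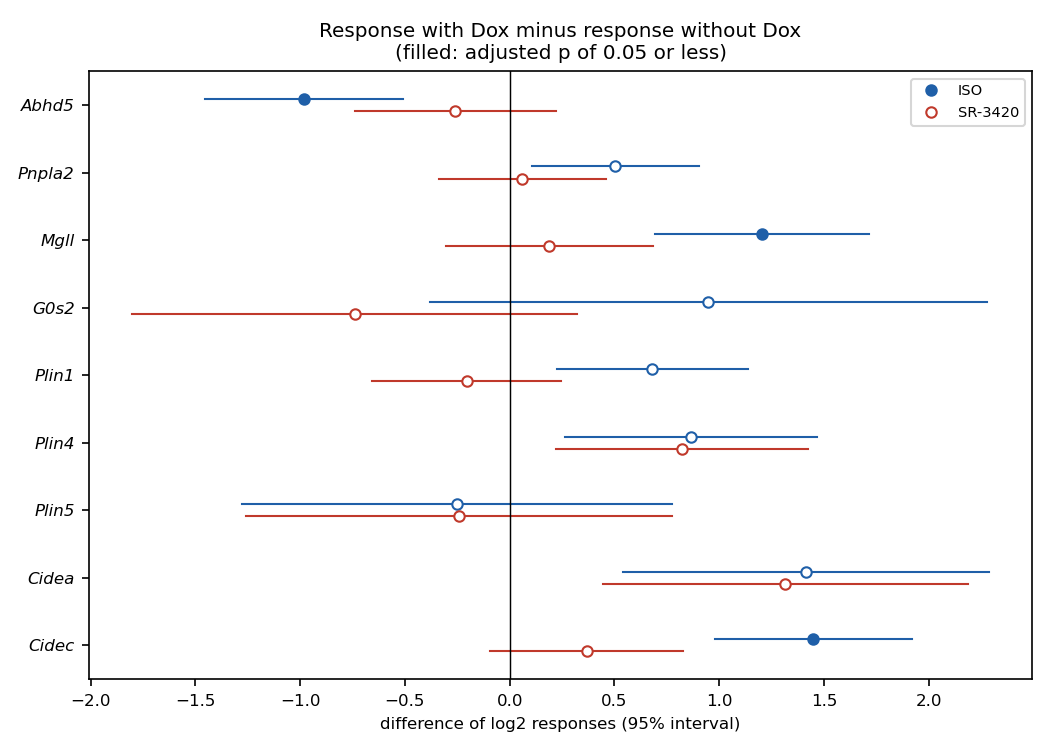
The log2 response with Dox minus that without Dox, for ISO (blue) and SR-3420 (red), with 95% intervals. Filled points have an adjusted p of 0.05 or less. Mgll (1.20) and Cidec (1.45) lie to the right and Abhd5 (-0.98) to the left for ISO, and no SR-3420 point is filled.

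With Dox, the agonist and the ligand could be compared directly. Plin4 was higher after ISO than after SR-3420 by 0.68 (SE 0.21, adjusted p = 0.0199), with no overlap of the libraries, where 10.4% of all genes were called higher after ISO and 9.43% lower. It was the only one of the 9, a share near the background, and it missed the threshold without SR-3420 with Dox replicate 3 (0.52) or when only those 2 groups were fitted (0.67). Leaving out SR-3420 with Dox replicate 2 brought a second call, Abhd5 (0.44). The differences were 0.28 for Cidea (95% interval -0.24 to 0.80), 0.25 for Abhd5 (-0.04 to 0.54), 0.19 for Pnpla2 (-0.09 to 0.46) and 0.13 for Plin5 (-0.51 to 0.77). They were -0.15 for Cidec (95% interval -0.47 to 0.17), -0.17 for Mgll (-0.50 to 0.16) and -0.19 for Plin1 (-0.51 to 0.13). G0s2 was lower after ISO by 0.65 without passing the threshold (95% interval -1.28 to -0.03, adjusted p = 0.131).

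The order of the 6 levels differed between genes. Abhd5 ran from DMSO, SR-3420 and ISO without Dox to the 3 groups with Dox, and only the neighbours within the latter overlapped. Plin4 ran from DMSO without and with Dox, which overlapped, to SR-3420 without Dox, ISO without Dox and SR-3420 with Dox, the last 2 overlapping, and ISO with Dox stood alone at the top. Cidec was lowest after ISO without Dox, apart from the next group, and highest after ISO and SR-3420 with Dox, which overlapped. Mgll was parted into 3 low and 3 high groups between DMSO with Dox and SR-3420 without Dox. For Pnpla2, Plin5, G0s2 and Cidea every pair of neighbouring groups overlapped.

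Across the 18 libraries the levels of some members rose and fell together. Pearson's r of log2 CPM, given as a description over libraries that share groups and scaling, was 0.94 for Plin1 with Cidec, 0.90 for Mgll with Cidec and 0.90 for Mgll with Plin1, and lowest for Plin4 with G0s2 (0.37). Of all genes tested, the 2 most like Abhd5 were Trim25 (0.96) and Rtp4 (0.95). For Plin4 they were Spg21 (0.96) and Dgat1 (0.96), the latter coding for an enzyme of triglyceride synthesis. For Cidec they were Adig (0.97) and Ywhab (0.96), for Plin1 Ywhab (0.94) and Cidec (0.94), for Mgll Agpat3 (0.94), and for Pnpla2 Acaa1a (0.94) and Tmem120a (0.92). The shallow genes had weaker partners: Ppfibp1 and Plin1 for G0s2 (0.89 each), Sh3kbp1 and Acadl for Cidea (0.89 each), and Ndufb7 (0.84) and Col6a3 (0.82) for Plin5.

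Of 22 other lipid droplet and neutral lipid hydrolysis genes, all in the table, 20 were tested. ISO raised 6 and lowered 3 of them without Dox, where 14.5% of all genes were called higher and 13.5% lower, so the number lowered is near the background. With Dox it raised 9 and lowered none (background 16.4% and 16.1%). SR-3420 raised 2 without Dox (Aqp7 and Fabp4; background 0.698%), and raised 6 and lowered 1 (Cav1, named after its value was seen) with Dox (background 6.53% and 3.37%). Their median log2 fold change was 0.26, 0.37, 0.27 and 0.29 in these 4 comparisons. Plin2, the perilipin found on droplets of most cells, rose by 1.06 after ISO without Dox (SE 0.26, adjusted p = 0.00289), by 1.89 after ISO with Dox and by 2.05 after SR-3420 with Dox. After SR-3420 without Dox its difference was 1.01 (SE 0.26, adjusted p = 0.0554), and neither interaction was called (adjusted p = 0.252 for ISO and 0.170 for SR-3420). Fabp4, the fatty acid carrier of the fat cell, rose by 2.38 after ISO with Dox (SE 0.27, adjusted p = 6.52e-08), by 1.87 after SR-3420 without Dox and by 2.82 with Dox. Its counted part is very short, at 73 bases, with 9 to 250 counts per library. Whether these reads came from introns was not tested. Aqp7, the channel through which glycerol leaves the cell, fell by 0.86 after ISO without Dox and rose by 0.43 with Dox, a difference of 1.29 (SE 0.26, adjusted p = 0.00508), and SR-3420 raised it by 0.80 and by 1.12. Fabp4 was the other gene of this list with a called ISO interaction (1.92, SE 0.47, adjusted p = 0.0251).

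Fitm2, which helps droplets to form, rose by 1.46 and 1.70 after ISO without and with Dox and by 1.41 after SR-3420 with Dox, and its SR-3420 difference without Dox was 0.75 (adjusted p = 0.629). Hilpda, which encodes an inhibitor of the first lipase, had 0 to 2 counts per library in DMSO without Dox and 0 to 6 with Dox. It had 5 to 12 and 21 to 48 counts after ISO and 0 to 4 and 17 to 28 after SR-3420, without and with Dox. It passed in all but SR-3420 without Dox, and fitted fold changes are not given for such low controls. Abhd6, a monoacylglycerol hydrolase, fell by 1.71 and Hsd17b11, a droplet-bound dehydrogenase, by 1.25 after ISO without Dox (adjusted p = 0.00188 and 0.00597), at 3 to 30 counts per library. With Dox the values were -0.52 and -0.43 and missed the threshold, and the interactions did too (adjusted p = 0.303 and 0.422).

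Of 14 genes that carry the β-adrenergic signal to the lipases, 12 were in the table and tested. ISO raised 6 without Dox and 7 with Dox, against 14.5% and 16.4% of all genes. SR-3420 raised 1 without Dox (Prkar2b) and 4 with Dox (Pde3b, Prkar2b and, named after their values were seen, Akap1 and Adcy6), against 0.698% and 6.53% of all genes. None fell in any of these. Adcy3, an adenylyl cyclase, rose after ISO from 66.2 ± 5.91 to 350 ± 66.3 CPM without Dox and from 87.0 ± 9.65 to 595 ± 132 CPM with Dox (SD, n = 3; adjusted p = 2.03e-11 and 2.63e-13), and the SR-3420 differences were 0.40 and 0.43. It overlaps Cenpo on the other strand by 17521 bases, so its value is uncertain. Prkar2b, a regulatory subunit of protein kinase A, rose by 1.75 after ISO with Dox and stood at 0.02 without, a difference of 1.73 (SE 0.21, adjusted p = 1.32e-05). Pde3b, the phosphodiesterase through which insulin restrains lipolysis, rose by 0.72 and 1.69, and these differed by 0.97 (SE 0.25, adjusted p = 0.0332). Adrb3, the β3-adrenergic receptor, rose after ISO with Dox by 1.76 (SE 0.54, adjusted p = 0.0133), from 21.5 ± 19.2 to 77.0 ± 47.4 CPM (SD, n = 3).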

How the data were processed

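RNA-seq counts of 18 libraries, 6 groups of 3 grouped by their titles, were analysed. According to the methods, which speak of independent experiments, the authors aligned reads to mm9 with STAR (2.4.2a), kept 1 read per position and length with HOMER, and ran iRNA-seq for quantification. Raw whole-number counts are what the authors deposited, and the strand setting is not given in the sources used here. Their counted lengths match introns although the methods name counting over genes.

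Genes were kept by filterByExpr (10178 tested, 7494 not), scaled by TMM (0.768 to 1.13) and fitted in 1 model of 6 group means with the quasi-likelihood test of edgeR 4.0.16 in R 4.3.3. Tests were two-sided and adjusted by Benjamini-Hochberg over all genes, with a call at 0.05. SE was derived from the F statistic. CPM used TMM-scaled totals, and counts limit precision for G0s2, Plin5 and Cidea. The test was run on counts simulated from the fitted dispersions with independent libraries. That run cannot speak to deviations shared by same-numbered libraries. The common dispersion was 0.0176.

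Named were all members, the genes of 2 pathway lists that were called and moved by at least 1 on the log2 scale in a stimulation comparison, and the 2 genes most correlated with each member (prior count 2), of which 1 is not reported here. The members and lists were chosen with earlier results of these data known, and the promoter motifs after their windows were seen. Same-numbered libraries deviated together (r 0.0386 to 0.277 over 45 pairs, median 0.149, 18 of 18 libraries closest to their own number). Every pair exceeded 0.1 for both comparisons with DMSO of SR-3420, for ISO with Dox and for Dox in ISO, but not across the 4 groups of either interaction. Unless stated, values are from the fit without a block, and those with the block are given beside the results whose call it changed. Alternatives were RLE factors, library totals only, no filter, at least 10 counts in every library, DESeq2 1.42.0, limma-voom (limma 3.58.1), the replicate block, only the groups compared, a log2 fold limit of 1, and each library left out.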

Additional observations from a re-analysis of the deposited data

Results flagged for a closer look

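The response to ISO differed between cells with and without Dox, by the interaction test, for 3 of the 9 genes, where 1.61% of all genes had a larger and 0.57% a smaller response with Dox. The replicate block called 6, no filter and DESeq2 5 each, library totals only 2, and the fits with a library left out 2 to 4. For Cidec the log2 response with Dox minus that without was 1.45, with a fall in all 3 ISO libraries without Dox and a rise in all 3 with Dox. For Mgll it was 1.20, with no called response without Dox. For Abhd5, the target of the shRNA, it was -0.98, with a rise in both states. That call was lost with library totals only. It was also lost without replicate 1 of DMSO or of ISO without Dox, or replicate 2 of DMSO with Dox. Abhd5 values with Dox cannot be taken as intron reads alone. Single outlying libraries were not searched for within these groups of 3.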

How the results depend on the processing

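Of 1330 fold changes recomputed for the members, 1241 kept their direction and side of the threshold, 49 fell below it, 23 passed it and 17 changed sign, the last among values that were not called. The cause was not tested except where a fit has fewer libraries or a stricter limit. The numbers of members called, with each library left out, were 2 to 3 for ISO without Dox, 7 to 7 for ISO with Dox, 2 to 5 for SR-3420 without Dox, 4 to 7 for SR-3420 with Dox, 1 to 2, 8 to 8 and 4 to 6 for Dox in DMSO, ISO and SR-3420, 0 to 2 for ISO against SR-3420, and 2 to 4 and 0 to 0 for the interactions of ISO and SR-3420. With a log2 fold limit of 1 they were 3 for ISO with Dox, 2 for SR-3420 without Dox, 1 and 3 for Dox in DMSO and SR-3420, and 0 for ISO against SR-3420. With library totals only they were 3 for SR-3420 with Dox, 1 for Dox in DMSO and 3 for Dox in SR-3420. Fitting only the groups compared gave 0 for ISO against SR-3420. The ISO interaction had 5 calls with no filter and 5 with DESeq2, which gave an adjusted p for 6 members. With the replicate block it had 6, adding Plin1 (0.67), Plin4 (0.87) and Cidea (1.43), and the SR-3420 interaction had 2, Plin4 (0.81) and Cidea (1.32). The block changed no other call except those of Pnpla2 and Plin4 given above, and all 18 libraries correlated best with their own number, a hint from the data and not the design.

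In fits with no library left out, changes of sign were small: with library totals only, Pnpla2 after ISO without Dox (-0.083) and its SR-3420 interaction (-0.066), and Mgll after ISO without Dox with no filter (0.011) and with limma-voom (0.016). The values that changed sign with a library left out ranged, after ISO without Dox, from -0.028 to 0.18 (Pnpla2), -0.19 to 0.11 (Mgll) and -0.36 to 0.28 (Cidea), for Cidea from -0.54 to 0.097 after SR-3420 without Dox and from -0.42 to 0.22 for Dox in DMSO, for ISO against SR-3420 from -0.40 to 0.033 (Mgll) and -0.17 to 0.33 (Plin5), from -0.56 to 0.070 for Plin5 in the ISO interaction and from -0.010 to 0.15 for Pnpla2 in that of SR-3420. Scaling by library totals moved the median of all genes from -0.01 to -0.19 for ISO without Dox, from -0.02 to -0.16 for ISO with Dox, from -0.01 to -0.21 for SR-3420 with Dox, from 0.00 to -0.22 for Dox in SR-3420 and from -0.01 to -0.14 for the SR-3420 interaction. The share of all calls that were higher went from 51.7% to 30.2%, 50.4% to 34.7%, 66.0% to 31.5%, 62.9% to 22.5% and 71.4% to 38.1% in these, and from 73.9% to 84.6% in the ISO interaction. The shallow genes G0s2, Plin5 and Cidea limit what can be said of them.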
